A study of Mus musculus with 36 samples.

Results

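Whole kidneys of newborn mice that had lost Pkd1 in the collecting duct were compared with those of littermates that kept it, by microRNA sequencing at postnatal day 1 (P1). The comparison takes in 6 of the 36 libraries of the series, 3 of Pkd1f/f:HoxB7-Cre kidneys (called KO) and 3 of Pkd1f/f kidneys without Cre (called WT), chosen by model, age and genotype and not by any measured value. Both genotypes carry the floxed Pkd1 allele on a C57BL/6 background, and only KO carries Cre, which the HoxB7 promoter drives in the ureteric bud and the collecting duct that grows from it. The rest of the kidney, with its nephrons, stroma and vessels, keeps Pkd1 and is part of each library, and fewer cells of a type cannot be told apart from less of a miRNA per cell. The remaining libraries are from the same model at P3 and P7 and from Pkd2f/f and Pkd2f/f:HoxB7-Cre kidneys. The question at P1, the earliest age sampled, is which miRNAs differ on the first days of life without Pkd1 in the collecting duct.

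A miRNA is a short RNA cut from a hairpin. The more abundant of the hairpin's arms is usually the one loaded into Argonaute, and the other arm, here called the minor arm, is mostly degraded. Target recognition rests mainly on the seed, bases 2 to 8 of the mature miRNA, so miRNAs with the same seed tend to bind the same sites. PKD1 encodes polycystin 1, a membrane protein of the primary cilium, and its loss in tubule epithelium leads to cysts. In kidney, the miR-192 and miR-194 hairpins and miR-204 are typical of tubule epithelium, the miR-200 family of epithelium in general, miR-143 and miR-145a of smooth muscle, and miR-451a, miR-144 and miR-486a of red blood cells. The miR-183 cluster and miR-21a-5p are miRNAs that the study followed in cystic kidneys.

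The mature sequences of the miRNAs on which the results turn are given below as RefSeq lists them for GRCm38.p6, 5′ to 3′, with the seed in capitals. RefSeq held a mature sequence for 588 of the 706 miRNAs tested. The miRNAs at a higher level in every KO library are shown first, since most of them are minor arms.
miR-148a-5p: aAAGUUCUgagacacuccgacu
miR-183-3p: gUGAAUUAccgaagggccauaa
miR-26b-3p: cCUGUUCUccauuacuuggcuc
miR-27b-5p: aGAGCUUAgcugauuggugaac
let-7g-3p: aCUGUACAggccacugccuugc
miR-700-3p: cACGCGGGaaccgaguccacc
miR-1251-5p: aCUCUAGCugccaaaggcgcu
miR-3066-5p: uUGGUUGCuguagauuaaguag
The pair miR-204-5p and miR-211-5p share a seed and differ at 1 base, A17U, counted from the 5′ end of miR-204-5p. The pair miR-25-3p and miR-92a-3p also share a seed.
miR-204-5p: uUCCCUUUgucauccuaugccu
miR-211-5p: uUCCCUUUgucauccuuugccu
miR-25-3p: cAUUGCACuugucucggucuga
miR-92a-3p: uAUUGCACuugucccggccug
The miRNAs at a lower level in every KO library follow.
miR-3068-3p: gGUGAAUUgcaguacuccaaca
miR-298-5p: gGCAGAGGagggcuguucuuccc
miR-144-5p: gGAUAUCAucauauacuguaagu
miR-450b-5p: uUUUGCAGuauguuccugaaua
miR-679-5p: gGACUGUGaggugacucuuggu
miR-329-5p: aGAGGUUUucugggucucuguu
The 2 most abundant miRNAs of these kidneys, which differ at 1 base, U12A, counted from the 5′ end of miR-10a-5p, and the miRNAs the study named are next.
miR-10a-5p: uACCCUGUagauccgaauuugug
miR-10b-5p: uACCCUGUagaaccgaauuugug
miR-182-5p: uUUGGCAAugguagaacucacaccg
miR-96-5p: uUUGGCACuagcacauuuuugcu
miR-183-5p: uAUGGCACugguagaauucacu
miR-21a-5p: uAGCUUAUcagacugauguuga
The last set marks the WT libraries that stood apart, from striated muscle, the Dlk1-Dio3 interval, a gonad-typical hairpin and a doubted entry.
miR-206-3p: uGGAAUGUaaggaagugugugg
miR-133b-3p: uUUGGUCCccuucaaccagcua
miR-381-3p: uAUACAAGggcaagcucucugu
miR-540-3p: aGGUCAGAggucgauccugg
miR-202-5p: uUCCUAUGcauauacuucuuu
miR-3470b: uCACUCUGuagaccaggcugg

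In these 6 libraries 13022619 to 27255128 reads were counted on mature miRNAs, and 3 reads, the floor below which a miRNA was not told from absent, corresponded to 0.0858 to 0.272 CPM (counts per 1000000 counted reads, normalised). All CPM values below are scaled by trimmed mean of M-values (TMM) factors, and all fold changes are KO over WT on the log2 scale. Depth was not even between groups, since WT2 and WT3 held the fewest reads and the KO libraries 19139729 to 24584369. Defining markers of kidney were present in all 6 libraries, with miR-192-5p at 7266, 7682 and 7731 CPM in KO and 4781, 4483 and 6662 CPM in WT, and miR-204-5p and the miR-200 family are given below.

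No miRNA passed an adjusted p of 0.05 between KO and WT at P1 in edgeR's quasi-likelihood test over 706 miRNAs (0 called, 0.00%), the smallest adjusted p being 0.334. At an unadjusted p under 0.05 the count was 59 (8.36%), of which 25 were higher in KO (3.54%) and 34 lower (4.82%), and DESeq2 called 70 without and 8 with adjustment. The 8 were miR-206-3p, miR-133b-3p, miR-133a-3p, miR-1a-3p, miR-543-3p, miR-3068-3p, miR-3470a and miR-3470b. Without WT3 edgeR also called 8 by adjusted p, the 7 tested striated muscle miRNAs and miR-540-3p, all of them high in WT1. A change of at least 2-fold with an unadjusted p under 0.05, the kind of limit the study used, was met by 30 miRNAs (4.25%), 3 higher (0.425%) and 27 lower in KO (3.82%). The groups did not overlap, that is, every KO library lay on the same side of every WT library, for 140 miRNAs (19.8%), with KO above WT for 82 (11.6%) and below WT for 58 (8.22%). The median log2 fold change of the 706 was -0.03. With library totals in place of TMM factors this median moved by 0.41 to 0.38, and the split of calls changed to 6 higher and 19 lower. With DESeq2 size factors it was 16 higher and 47 lower. The differences named below are therefore read as unadjusted differences between 6 libraries and relative to that median.

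The miRNAs higher in KO at an unadjusted p under 0.05 were mostly small in effect. They were chosen by p in these same libraries, which favours groups that do not overlap. The counts that follow are therefore not separate support. Of the 25 with an unadjusted p under 0.05, 24 did not overlap between the groups and 23 kept an unadjusted p under 0.05 without WT1, a library that stood apart (below). By contrast, of the 34 that were lower in KO only 8 did not overlap, 22 had their highest value in WT1, 20 of those by at least 2-fold over the next library, and 12 kept an unadjusted p under 0.05 without WT1. Leaving out WT1 gave 85 miRNAs at an unadjusted p under 0.05 of 698, 58 higher and 27 lower in KO, and again 0 by adjusted p.

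miR-148a-5p had the smallest p among the miRNAs higher in KO. It is the minor arm of the miR-148a hairpin on chromosome 6, at 51269812 to 51269910 on the minus strand of GRCm38, outside other annotated genes. Its level was 224, 247 and 221 CPM in KO1 to KO3 and 167, 130.1 and 109 CPM in WT1 to WT3 (log2 fold change 0.77, SE 0.25, unadjusted p = 0.00807, adjusted p = 0.438). The 3 KO libraries lay within 221 to 247 CPM, above the highest WT library, which was WT1. The major arm, miR-148a-3p, stood at 8008, 8558 and 7795 CPM in KO and 7296, 7976 and 8116 CPM in WT and overlapped between the groups (log2 fold change 0.06, unadjusted p = 0.666). miR-152-3p, which has the same seed as miR-148a-3p, stood at 125, 133 and 172 CPM in KO and 117, 77.1 and 106 CPM in WT (log2 fold change 0.52, unadjusted p = 0.0383).

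miR-30d-3p, the minor arm of a member of the miR-30 family, was at 92.1, 101 and 85 CPM in KO1 to KO3 and 69.6, 49.4 and 63.3 CPM in WT1 to WT3 (log2 fold change 0.61, SE 0.21, unadjusted p = 0.00980). The lowest KO library lay above the highest WT library. miR-183-3p, the minor arm of the miR-183 hairpin on chromosome 6 at 30169668 to 30169737, was at 9.69, 7.89 and 8.94 CPM in KO1 to KO3 and 5.92, 5.26 and 4.14 CPM in WT1 to WT3 (log2 fold change 0.79, SE 0.29, unadjusted p = 0.0149), counted from 58 to 282 reads a library. miR-26b-3p, whose hairpin lies in an intron of Ctdsp1 on chromosome 1, was at 16.8, 15.7 and 14.1 CPM in KO1 to KO3 and 13.7, 7.80 and 6.76 CPM in WT1 to WT3, where WT1 lay close to the lowest KO library and the other WT libraries lower (log2 fold change 0.71, unadjusted p = 0.0159).

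miR-27b-5p was at 33.7, 39.1 and 29.7 CPM in KO and 26.7, 24 and 22.3 CPM in WT (log2 fold change 0.49, unadjusted p = 0.020). let-7g-3p, from a hairpin in an intron of Wdr82, was at 10.5, 9.29 and 9.93 CPM in KO and 6.40, 3.09 and 6.31 CPM in WT (log2 fold change 0.90, unadjusted p = 0.0202). miR-700-3p was at 4.96, 6.66 and 4.66 CPM in KO and 3.46, 1.45 and 2.61 CPM in WT (log2 fold change 1.09, unadjusted p = 0.0195). All 3 of these are minor arms. miR-1251-5p, from an intron of the long non-coding RNA Rmst, was at 4.69, 5.70 and 5.49 CPM in KO and 3.34, 2.27 and 2.23 CPM in WT (log2 fold change 1.00, unadjusted p = 0.0186). miR-3066-5p, from an intron of Nol10, was at 2.89, 2.78 and 2.28 CPM in KO and 2.09, 1.27 and 1.72 CPM in WT (log2 fold change 0.62, unadjusted p = 0.0159). None of the WT values of these 5 reached the lowest KO value.

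**Figure D1:**
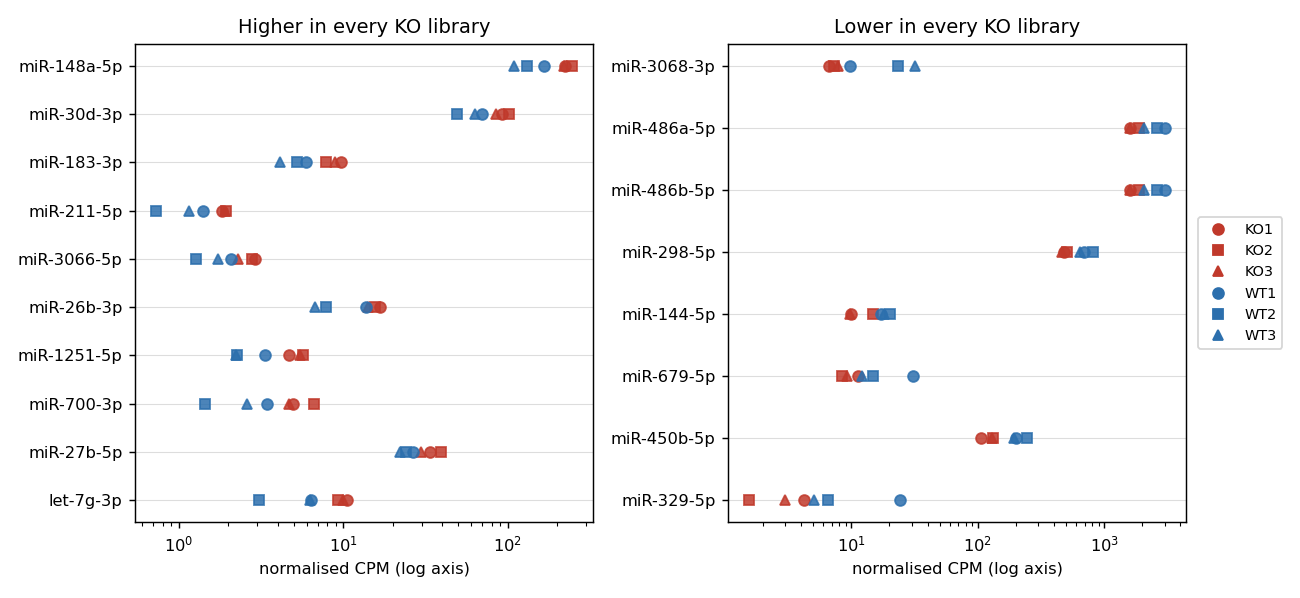
Normalised CPM (log axis) of the 10 miRNAs higher and the 8 lower in every KO library with the smallest unadjusted p, 1 marker a library, KO in red and WT in blue. WT1 is the WT library nearest to the KO libraries for miR-148a-5p and miR-26b-3p, and the highest of all for miR-679-5p and miR-329-5p.

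The minor arm's share of the reads of both arms is a ratio of 2 counts of the same library and does not depend on any scaling. Where several hairpins make the same major arm, as for miR-19b-1 and miR-181b-1, its reads cannot be assigned to 1 hairpin. The ratio is then not a share of that hairpin's reads. Among the 25 miRNAs higher in KO at an unadjusted p under 0.05, 14 were minor arms and 2 major arms of hairpins with both arms measured, against 176 minor and 168 major arms among all 706. Of the 34 lower in KO, 2 were minor and 6 major arms. For miR-148a the minor arm took 2.73, 2.81 and 2.76% in KO and 2.23, 1.61 and 1.32% in WT. For miR-30d it took 2.02, 2.27 and 1.97% in KO and 1.45, 0.787 and 1.02% in WT, and for let-7g 0.832, 0.752 and 0.750% in KO and 0.557, 0.269 and 0.418% in WT. All 3 shares were higher in every KO library than in any WT library, and WT1 was the WT library nearest to KO. The 3 minor arms were chosen for a CPM higher in every KO library. Their reads also form the top of the ratio, so these shares are not separate support.

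Every KO library was also above every WT library for miR-700, where the minor arm took 24.3, 27.1 and 20.2% in KO and 17.6, 10.1 and 17.4% in WT, for miR-181b-1 with 0.878, 1.17 and 0.801% in KO and 0.783, 0.315 and 0.364% in WT, and for miR-196b, whose hairpin lies in an exon of Hoxa9, with 0.780, 0.747 and 0.544% in KO and 0.396, 0.116 and 0.489% in WT. For miR-183, miR-26b and miR-27b the minor arm's share overlapped between the groups, although its CPM did not. miR-145a had a wide difference, with 23.1, 23.8 and 16.9% in KO and 9.34, 4.95 and 14.4% in WT of its reads on miR-145a-3p. miR-19b-1 had the widest, with 0.698, 0.883 and 0.872% in KO and 0.313, 0.186 and 0.289% in WT on miR-19b-1-5p. Its major arm miR-19b-3p, which is not made by this hairpin alone, was lower in every KO library (321, 216 and 249 CPM in KO and 501, 777 and 659 CPM in WT). Over all 176 hairpins, the minor arm's share was higher in every KO library for 31 and lower for 25, and the median difference of log2 (minor over major) was 0.09, so the arms did not shift together in all hairpins. Lower shares in every KO library were seen for miR-329-5p (25.5, 21.9 and 19.6% in KO and 42.7, 44.2 and 42.6% in WT) and miR-221-5p (2.70, 2.20 and 2.12% in KO and 3.81, 7.60 and 5.66% in WT).

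**Figure D2:**
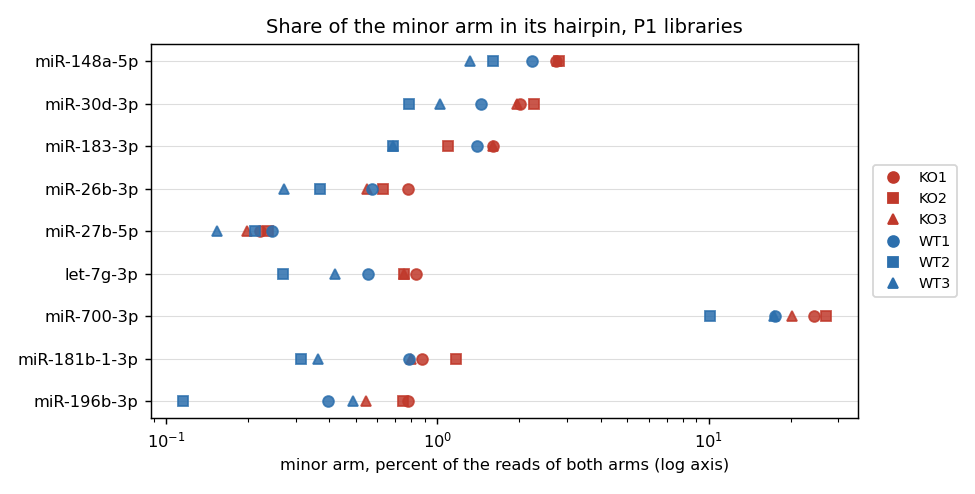
Percent of the reads of both arms of a hairpin that fell on the named minor arm (log axis), 1 marker a library, KO in red and WT in blue. The major arm paired with miR-181b-1-3p is also made by another hairpin. The share of miR-148a-5p was 2.73% to 2.81% in KO and 1.32% to 2.23% in WT, and the share of miR-27b-5p overlapped.

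Tubule miRNAs of the nephron tubule list were higher in KO in direction, but other miRNAs set down as markers of kidney epithelium were not. The log2 fold change was -0.28 for miR-30a-5p, -0.61 for miR-10a-5p and -0.74 for miR-10b-5p, each with an unadjusted p above 0.05. Both miR-10 members were lower in every KO library. All 9 tested members of the nephron tubule list had a positive log2 fold change, as had 343 of all 706. Their median was 0.54 (0.93 with library totals, with that of all 706 then at 0.38). KO lay above WT in every library for 5 of them, against 11.6% of all 706. Of the 9, 3 had an unadjusted p under 0.05, all higher, against 3.54% of all 706. miR-204-5p was at 487, 509 and 604 CPM in KO1 to KO3 and 387, 312 and 398 CPM in WT1 to WT3 (log2 fold change 0.54, SE 0.23, unadjusted p = 0.0301). Its near-identical relative miR-211-5p, from an intron of Trpm1, was at 1.84, 1.93 and 1.90 CPM in KO and 1.40, 0.726 and 1.15 CPM in WT with 8 to 60 reads a library (log2 fold change 0.75, unadjusted p = 0.0158). How reads that fit both were divided is not stated, so the weaker of them is uncertain.

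miR-194-2-3p was at 2.70, 2.74 and 2.76 CPM in KO and 1.97, 1.27 and 1.72 CPM in WT (log2 fold change 0.71, unadjusted p = 0.0252). miR-192-5p, the most abundant of the list, was higher in every KO library at the values given above, with a p that missed the limit (log2 fold change 0.51, unadjusted p = 0.153). miR-194-5p, made from the same transcripts as miR-192-5p and miR-215-5p, stood at 107, 131 and 127 CPM in KO and 109, 106 and 112 CPM in WT, with WT overlapping KO. miR-215-5p was high in KO3 alone, at 3.64, 2.63 and 31.1 CPM in KO and 1.83, 1.27 and 5.29 CPM in WT. The 9 tested members of the miR-200 family also all had positive fold changes, with a median of 0.19, but 0 had an unadjusted p under 0.05 and all 9 overlapped, with miR-200b-3p at 1094, 1350 and 1057 CPM in KO and 868, 1179 and 1127 CPM in WT.

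Red blood cell miRNAs lay lower in KO. On the erythroid list of 5, 2 had an unadjusted p under 0.05, both lower, against 4.82% of all 706. KO lay below WT in every library for 3, against 8.22% of all 706. The median was -0.49, which library totals brought to -0.06, with that of all 706 then at 0.38. miR-486a-5p was at 1586, 1878 and 1600 CPM in KO1 to KO3 and 3045, 2615 and 2066 CPM in WT1 to WT3 (log2 fold change -0.61, SE 0.23, unadjusted p = 0.0196). miR-486b-5p, made by an overlapping hairpin, had nearly the same counts and is the same measurement. Without WT1 the p of miR-486a-5p was 0.0855. miR-144-5p, from a hairpin on chromosome 11 at 78073005 to 78073070, was at 9.99, 14.7 and 9.67 CPM in KO1 to KO3 and 17.2, 20.1 and 18.2 CPM in WT1 to WT3 (log2 fold change -0.69, SE 0.27, unadjusted p = 0.0218), and miR-451a of the same transcript was at 497, 538 and 526 CPM in KO and 672, 801 and 715 CPM in WT (log2 fold change -0.49, unadjusted p = 0.384). The other arm, miR-144-3p, did not follow, at 10.6, 14.6 and 7.14 CPM in KO and 7.89, 2.36 and 10.7 CPM in WT. The summed level of the list was 2105 to 2447 CPM in KO and 2812 to 3744 CPM in WT. The part of blood content in any other difference was not tested.

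The other members of the 8 that were lower in every KO library at an unadjusted p under 0.05 follow. miR-3068-3p, whose hairpin lies in an intron of Alkbh1 on chromosome 12 and in an exon of a long non-coding RNA annotated over it, was at 6.61, 7.33 and 7.86 CPM in KO1 to KO3 and 9.78, 23.4 and 31.8 CPM in WT1 to WT3 (log2 fold change -1.57, SE 0.43, unadjusted p = 0.00214, adjusted p = 0.334). At the same place GENCODE M21 also lists an exon of a small nucleolar RNA, under the name Mir3068. For miR-3068-3p, WT1 lay near the KO libraries, and WT2 and WT3 well above. miR-298-5p, from chromosome 2, was at 483, 507 and 461 CPM in KO1 to KO3 and 689, 811 and 648 CPM in WT1 to WT3 (log2 fold change -0.57, SE 0.22, unadjusted p = 0.0211), with every KO library below the lowest WT library. miR-450b-5p, from the X chromosome, was at 107, 132 and 129.6 CPM in KO and 201, 247 and 195 CPM in WT (log2 fold change -0.80, unadjusted p = 0.0403), and miR-322-5p from the same region of the X chromosome was at 768, 872 and 780.3 CPM in KO and 1058, 1609 and 1438 CPM in WT (log2 fold change -0.76, unadjusted p = 0.0709). The labels do not give the sex of the animals, and its part in these X-linked values was not tested. miR-679-5p and miR-329-5p are part of the Dlk1-Dio3 interval and had their highest value in WT1.

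WT1 stood apart from the other 5 libraries in 2 sets of miRNAs. The first is striated muscle. All 7 tested miRNAs of the striated muscle list had an unadjusted p under 0.05 with KO lower, but 0 of them separated the groups, because only WT1 was high. miR-133a-3p was at 43.6, 15.9 and 31.7 CPM in KO1 to KO3 and 1045, 36.6 and 12.9 CPM in WT1 to WT3, and miR-206-3p, typical of skeletal muscle, was at 0.376, 0 and 0.0634 CPM in KO1 to KO3 and 57, 1.63 and 0.255 CPM in WT1 to WT3. The other 5 members followed, with miR-133b-3p at 3.57, 1.30 and 1.52 CPM in KO1 to KO3 and 167, 3.72 and 1.34 CPM in WT1 to WT3 and miR-208b-3p, a miRNA of slow and cardiac muscle, at 0.225, 0.333 and 0.412 CPM in KO1 to KO3 and 18.5, 0.272 and 0.191 CPM in WT1 to WT3. The summed list was 1349 CPM in WT1, 45.1 and 15.9 CPM in WT2 and WT3, and 18 to 49.5 CPM in KO. miR-206-3p and miR-133a-5p had 0 reads in KO2 and miR-133a-5p 0 in WT3, and miR-208a-3p was under the filter. Without WT1, the p of 6 of the 7 was above 0.05 and that of miR-206-3p was 0.0478.

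The second is the imprinted interval from Dlk1 to Dio3 on mouse chromosome 12 (109452485 to 110281097 on GRCm38), which holds a large array of maternally expressed miRNAs. This interval was looked up after its miRNAs were seen among the calls. WT1 was the highest of the 6 libraries for all 78 of its tested miRNAs (100%), and by at least 2-fold over the next for 60, while WT1 was highest for 171 of all 706 miRNAs (24.2%). The summed level was 33039 CPM in WT1, 6072 and 5387 CPM in WT2 and WT3, and 11098, 6380 and 7352 CPM in KO1 to KO3. miR-381-3p was at 383, 239 and 293 CPM in KO1 to KO3 and 2442, 263 and 206 CPM in WT1 to WT3, and miR-540-3p at 18.2, 11 and 14.7 CPM in KO1 to KO3 and 94.5, 28.7 and 16.5 CPM in WT1 to WT3. Of the 78, 12 had an unadjusted p under 0.05, all lower in KO, and the median was -0.88. Without WT1 the median turned to 0.38, and 10 of the 76 left in the fit had an unadjusted p under 0.05, all higher in KO. miR-202-5p, known from gonads, was also at 0.225, 0 and 0.0317 CPM in KO1 to KO3 and 22.8, 0.0907 and 0.0638 CPM in WT1 to WT3, above the floor of 3 reads in WT1 and KO1 alone.

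The muscle list, the interval and miR-202-5p together account for 20 of the 34 miRNAs lower in KO. Of the other 14, miR-486a-5p and miR-486b-5p had their highest value in WT1 and 12 in WT2 or WT3. WT2 and WT3 stood apart in turn in a small set. miR-3470a was at 1.13, 0.815 and 1.71 CPM in KO1 to KO3 and 0.886, 15.7 and 30 CPM in WT1 to WT3 and miR-3470b at 3.61, 3.48 and 5.20 CPM in KO1 to KO3 and 2.49, 49.4 and 92.1 CPM in WT1 to WT3, entries that are doubted as miRNAs, and miR-690 had the same order at 0.751, 1.48 and 0.888 CPM in KO and 1.32, 5.90 and 7.40 CPM in WT. WT1 lay within the range of the KO libraries for miR-3470a and miR-690, and below all 3 for miR-3470b. miR-5099, another doubted entry, went the other way at 158, 171 and 111 CPM in KO and 108, 48.1 and 74.4 CPM in WT (log2 fold change 0.93, unadjusted p = 0.0476). Of the 9 doubted entries 1 was higher and 3 lower in KO at an unadjusted p under 0.05. The cause of these splits within WT was not tested.

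**Figure D3:**
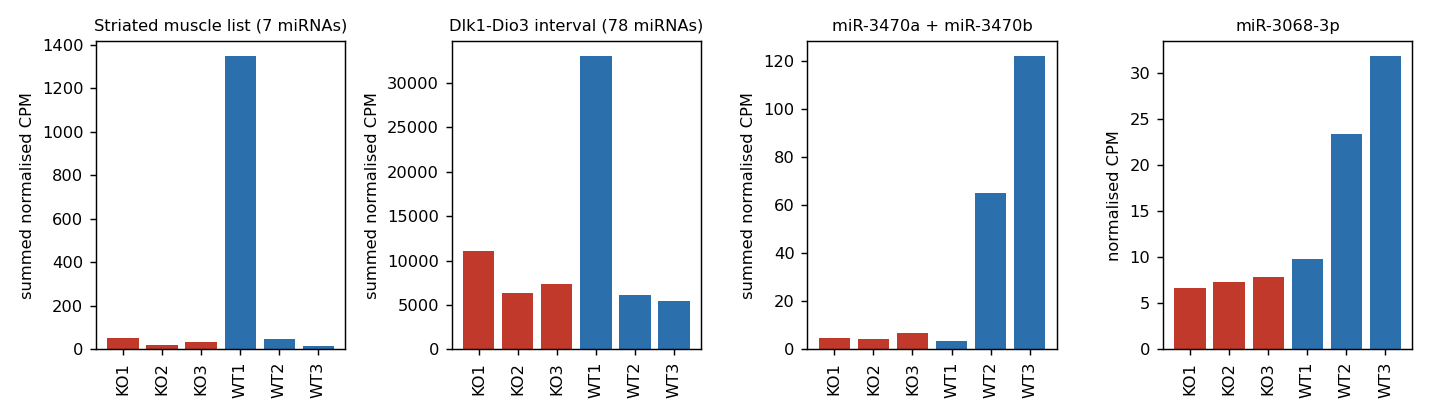
Summed normalised CPM by library of the striated muscle list, of the 78 miRNAs of the Dlk1-Dio3 interval and of miR-3470a with miR-3470b, and the CPM of miR-3068-3p, with KO in red and WT in blue. WT1 is the high library in the first 2 panels, and WT2 and WT3 in the last 2.

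Of the most abundant miRNAs, miR-10b-5p and miR-10a-5p split WT in the same way, with WT1 near the KO libraries. miR-10b-5p, whose hairpin lies within Hoxd3 and Hoxd4, took 32.7%, 29.3% and 32.7% of reads in KO1 to KO3 and 33.2%, 42.1% and 38.5% in WT1 to WT3. miR-10a-5p took 27.5%, 28.0% and 29.1% in KO and 29.7%, 33.0% and 31.4% in WT. Both shares were lower in every KO library, but by under 1 percentage point against WT1 for the nearest KO library, and the test gave log2 fold change -0.74, unadjusted p = 0.307 for miR-10b-5p and log2 fold change -0.61, unadjusted p = 0.297 for miR-10a-5p. miR-143-3p, the smooth muscle miRNA, took 5.47%, 4.90% and 4.72% of reads in KO and 2.96%, 1.91% and 2.76% in WT, so that every KO library was higher in share and in CPM (41403, 34697 and 36823 CPM in KO1 to KO3 and 23068, 22552 and 30589 CPM in WT1 to WT3), with a p of 0.0813. Its partner miR-145a-5p went the other way at 265, 158 and 236 CPM in KO and 361, 660.2 and 342 CPM in WT (log2 fold change -1.05, unadjusted p = 0.301), so the pair from the same transcript did not move together.

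Others of the 10 most abundant overlapped between the groups or came close. miR-27b-3p was at 15104, 16367 and 14870 CPM in KO and 10812, 11236 and 14435 CPM in WT and did not overlap (log2 fold change 0.35, unadjusted p = 0.148). miR-30e-5p was at 7464, 8523 and 8906 CPM in KO and 9432, 10197 and 12389 CPM in WT (log2 fold change -0.36, unadjusted p = 0.199), and miR-30a-5p at 31578, 34531 and 34939 CPM in KO and 32057, 43255 and 47096 CPM in WT (log2 fold change -0.28, unadjusted p = 0.203). Both changed sign with library totals, but stayed below the median of all 706, which was then 0.38. miR-26a-5p had 1 high library, WT3 (13359, 17335 and 16032 CPM in KO and 14276, 13702 and 28730 CPM in WT). miR-181a-5p (-0.07), miR-148a-3p (0.06) and let-7f-5p (0.06) had log2 fold changes within 0.07 of 0 and overlapped.

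**Figure D4:**
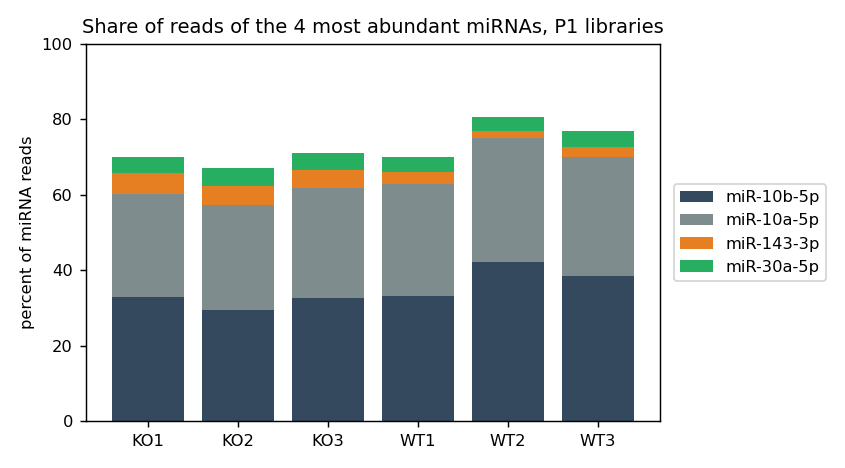
Percent of the miRNA reads of each library that fell on the 4 most abundant miRNAs, as stacked bars. miR-10b-5p took 42.1% in WT2 against 29.3% in KO2, and miR-143-3p took 4.72% to 5.47% in KO against 1.91% to 2.96% in WT.

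The miR-25 and miR-92a pair was higher in every KO library. miR-25-3p, from an exon of Mcm7, was at 3027, 3265 and 2879 CPM in KO1 to KO3 and 2189, 1928 and 2272 CPM in WT1 to WT3 (log2 fold change 0.52, SE 0.23, unadjusted p = 0.0406). miR-92a-3p was at 6531, 6403 and 5682 CPM in KO and 4828, 5271 and 5514 CPM in WT (log2 fold change 0.25, unadjusted p = 0.140). The miR-17/92 cluster, of which miR-92a-3p is a part, had a median of -0.22 over its 12 tested members (0.22 with library totals, against 0.38 for all 706). Of these, 0 had an unadjusted p under 0.05. KO lay above WT in every library for 3, miR-92a-3p among them (11.6% of all 706), and below for 4 (8.22%). A hairpin on the X chromosome also makes miR-92a-3p, so its reads cannot be assigned to the miR-17/92 cluster alone. miR-19a-3p, which differs from miR-19b-3p at 1 base, was at 43.1, 27.8 and 30.9 CPM in KO and 70.6, 86.7 and 111 CPM in WT (log2 fold change -1.40, unadjusted p = 0.291). Both miR-19 members lay lower in every KO library. The spread behind these p-values was estimated over P1, P3 and P7 together. Over 16 refits the unadjusted p ran from 0.000686 to 0.414 for miR-19a-3p and from 0.000616 to 0.431 for miR-19b-3p. For each it was under 0.05 in 1 refit. The same held for miR-10a-5p (0.0185 to 0.555), miR-10b-5p (0.0193 to 0.507), miR-145a-5p (0.0134 to 0.544) and miR-451a (0.00432 to 0.864).

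The miRNAs that the study followed gave no difference past the threshold at P1, apart from 1 minor arm. miR-21a-5p was at 3504, 3274 and 3633 CPM in KO1 to KO3 and 3454, 3895 and 3659 CPM in WT1 to WT3 (log2 fold change -0.08, SE 0.16, unadjusted p = 0.627), and the groups overlapped. miR-182-5p was at 7443, 6229 and 5039 CPM in KO1 to KO3 and 4971, 8869 and 7961 CPM in WT1 to WT3 (log2 fold change -0.22, SE 0.22, unadjusted p = 0.326), where WT1 was the lowest library. miR-183-5p was at 598, 715 and 549 CPM in KO and 416, 759 and 601 CPM in WT (log2 fold change 0.07, unadjusted p = 0.736), miR-96-5p at 15.5, 12.6 and 12.1 CPM in KO and 12.9, 18.1 and 20.9 CPM in WT (log2 fold change -0.36, unadjusted p = 0.575), and miR-182-3p at 0.751, 0.444 and 0.412 CPM in KO and 0.486, 0.635 and 0.0638 CPM in WT (log2 fold change 0.44, unadjusted p = 0.450). Of the 5 tested members of the miR-183 cluster only the minor arm miR-183-3p had an unadjusted p under 0.05. A p that missed the limit does not show equal levels.

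Lists of other cell types and pathways gave few differences. Mesenchyme had 3 of 6 miRNAs above WT in every library (11.6% of all 706 were) and 0 at an unadjusted p under 0.05 (median 0.29), with miR-199a-3p at 3470, 3659 and 4062 CPM in KO and 3225, 2236 and 2501 CPM in WT. Another of the 3, miR-199b-3p, has the same mature sequence and nearly the same counts, so the pair is 1 measurement. Smooth muscle and pericyte had a median of 0.39 over 4, endothelium 0.22 over 2, leukocyte -0.05 over 7, neural 0.10 over 9, let-7 0.04 over 9, miR-29 0.26 over 5, miR-34 -0.05 over 6 and miR-15/16 -0.07 over 6, all with 0 at an unadjusted p under 0.05. Of the 7 leukocyte miRNAs, KO lay below WT in every library for 3 (8.22% of all 706 did) and above for 0. Without WT1 the leukocyte median was 0.22. With library totals the medians of the leukocyte, miR-34 and miR-15/16 lists turned positive (0.29, 0.34 and 0.35). They stayed below the median of all 706, which was then 0.38. With DESeq2 size factors that of let-7 turned negative (-0.01) but stayed above that of all 706 (-0.08). The hypoxia pair had a median of 0.52, with miR-210-3p at 269, 194 and 218 CPM in KO and 131, 132 and 197 CPM in WT (log2 fold change 0.57, unadjusted p = 0.116). The hepatocyte pair had a median of -2.54, with miR-122-5p at 2.07, 0.963 and 5.83 CPM in KO and 22.1, 3.99 and 33.4 CPM in WT (log2 fold change -2.74, unadjusted p = 0.0793), and the urothelium list had 0 of 4, with miR-205-5p lowest in WT1 (184, 161 and 124 CPM in KO and 53.9, 182 and 196 CPM in WT).

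The miR-106b/25 cluster, the miR-10 family, the miR-30 family and the miR-23/27/24 clusters each had 1 member at an unadjusted p under 0.05, higher in KO, with medians of 0.25, -0.21, -0.06 and 0.02. Library totals turned the medians of the miR-10 and miR-30 families positive (0.22 and 0.36), still below that of all 706 (0.38). DESeq2 size factors turned that of the miR-23/27/24 clusters negative (-0.03), still above that of all 706 (-0.08). Those members were miR-25-3p, miR-196b-3p, miR-30d-3p and miR-27b-5p. The miR-21a pair of arms had 0 of 2. The gonad and endocrine list had 1 of 4, miR-202-5p, and its miR-375-3p was high in 1 library of each group (234, 43.1 and 29.2 CPM in KO and 283, 34.7 and 55.4 CPM in WT).

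The P1 differences were set beside those at P3, at P7 and in the Pkd2 model at P1, which use other kidneys. miR-148a-5p, higher at P1 by 0.77, had a log2 fold change of 0.24 at P3, -0.47 at P7 and -0.34 in the Pkd2 model. miR-204-5p had -0.22, -0.38 and -0.04. Unlike miR-148a-5p and miR-204-5p, miR-183-3p kept its direction at both later ages. It had 0.89 at P3 (unadjusted p = 0.00703) and 1.39 at P7 (adjusted p = 0.0528), and 0.07 in the Pkd2 model. Of the 25 miRNAs higher in KO at P1, 11 had the same sign at P3, 9 at P7 and 16 in the Pkd2 model. Of the 34 lower, 6, 19 and 20 did. Over all 706 the sign was shared by 310 (43.9%), 322 (45.6%) and 388 (55.0%).

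miR-21a-5p gave the only adjusted call of a difference between ages in edgeR (1 of 706, 0.142%), where DESeq2 made 5 for P7 against P1. Its KO effect was -0.08 at P1 and 1.45 at P7, a difference of 1.53 (SE 0.23, adjusted p = 0.00514), with 16497 to 18502 CPM in the KO kidneys and 6209 to 6581 CPM in the WT kidneys at P7. The call was lost with library totals alone (difference 1.05, adjusted p = 0.814) and with the replicate block (difference 1.53, adjusted p = 0.172). miR-183-5p was next, with a difference of 1.21 (adjusted p = 0.142). Of P3 against P1, 0 of 706 passed (0.00%) in edgeR, against 35 in DESeq2, and 102 had an unadjusted p under 0.05. The smallest adjusted p values were those of the red cell miRNAs miR-144-5p (1.76, adjusted p = 0.0799) and miR-486a-5p (1.52, adjusted p = 0.0799), which were lower in KO at P1 and higher in KO at P3. At P3, miR-486a-5p was at 1074, 1700 and 2193 CPM in KO and 693, 908 and 1039 CPM in WT. Between the Pkd1 and Pkd2 models at P1, 0 of 775 passed (0.00%) in edgeR, against 8 in DESeq2, and 49 had an unadjusted p under 0.05, led by the muscle miRNAs miR-206-3p and miR-133b-3p (adjusted p = 0.0552 for both), for which WT1 of the Pkd1 model was high.

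**Figure D5:**
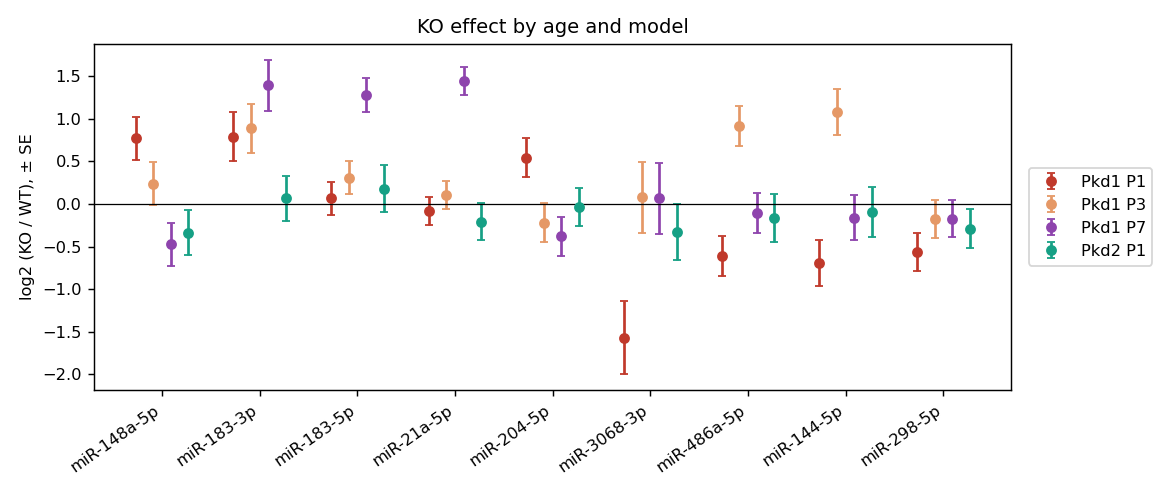
Log2 fold change of KO over WT, with its SE, of 9 miRNAs in the Pkd1 model at P1, P3 and P7 and in the Pkd2 model at P1. miR-21a-5p is near 0 at P1 and 1.45 at P7, and miR-486a-5p and miR-144-5p lie below 0 at P1 and above 0 at P3.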

How the data were processed

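Total RNA of whole kidneys was extracted with TRIzol and sequenced as small RNA on an Illumina HiSeq2000. The authors trimmed adaptors, discarded reads of 17 bases or fewer and quantified the others with miRDeep2, using miRBase release 21 and mm10, the build that is GRCm38, and the submitters' processing notes also name CASAVA 1.8.2 and HTSeq. The miRDeep2 version and its treatment of mismatches are not given in the sources used here. The deposited values are raw counts, not normalized by the authors, in 2061 rows of a mature miRNA and a precursor. Of the 1915 mature miRNAs, 83 were listed on several rows, and the row with the highest total over all 36 libraries was used. Their reads cannot be assigned to 1 hairpin.

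The 18 libraries of the Pkd1 model were fitted together in edgeR 4.0.16 (R 4.3.3) with 6 groups, TMM factors and quasi-likelihood tests, for the 706 miRNAs that reached 10 counts in 3 or more libraries, and p was adjusted by Benjamini-Hochberg over all of them. The spread behind each p at P1 was thus estimated over P1, P3 and P7 together. Both models were fitted together (775 miRNAs) for the comparison with Pkd2. The SE is the log2 fold change divided by the square root of F. DESeq2 1.42.0, other scalings, filters and samples were alternatives. The script was tested on simulated data with 706 miRNAs, of which 100 were changed 2-fold and 100 changed 4-fold at P1. Every miRNA had the same dispersion, and no library stood apart. At a dispersion of 0.1, 36% of 2-fold and 89% of 4-fold changes were recovered at an adjusted p under 0.05. At 0.3 it was 7% and 44%. Recovery with fewer changes, uneven dispersion or a library like WT1 was not tested. The common dispersion of the real counts was 0.138.

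Named miRNAs were up to 10 higher and 10 lower in KO with the smallest unadjusted p under 0.05, a mean of 10 or more counts in the 6 libraries and no overlap between groups (24 were eligible as higher and 8 as lower), the 10 most abundant, those named by the study, the most abundant and lowest-p members of each list, and 2 of each difference between ages or models. Others were chosen after their values were seen: miR-19a-3p, miR-19b-1-5p, miR-19b-3p, miR-145a-3p, miR-145a-5p, miR-221-5p, miR-152-3p, miR-181b-1-3p, miR-144-3p, miR-451a, miR-208b-3p, miR-133a-5p, miR-690, miR-3470b, miR-381-3p, miR-540-3p, miR-194-2-3p, miR-194-5p, miR-215-5p, miR-1a-3p, miR-543-3p, miR-199b-3p and miR-204-5p. The members and lists were chosen with earlier results of these data known. Arms were paired by precursor where the minor arm had at least 10 reads in each of the 6 libraries. Places of hairpins are from RefSeq GRCm38.p6 and GENCODE M21. The labels name no cultures or animals per library, so p-values measure the spread between these libraries, and floors cover counting error only. The nearest 2 libraries of a group differed by 182 in chi-square per degree of freedom, more than counting error alone gives. At this depth that value cannot tell separate animals from repeats of the same animal. All were counted as separate samples.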

Additional observations from a re-analysis of the deposited data

Results flagged for a closer look

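miR-21a-5p is listed for a closer look because its KO effect differed between ages by a test of the difference itself. The log2 fold change of KO over WT at P7 minus that at P1 was 1.53 (SE 0.23, adjusted p = 0.00514), from -0.08 at P1 and 1.45 at P7, and all 3 KO libraries at P7 lay above all 3 WT libraries at P7. Over its 21 alternatives the difference ran from 1.05 to 1.63 and the adjusted p from 1.76e-07 to 0.814. With 1 library left out at a time it ran from 1.48 to 1.57 and stayed past the threshold in all 12 refits. It was lost with library totals alone and with the replicate block.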

How the results depend on the processing

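The count of miRNAs at an adjusted p under 0.05 between KO and WT at P1 stayed at 0 under every setting of edgeR on all 18 libraries and on the 6 P1 libraries alone, and was 8 with DESeq2. The count at an unadjusted p under 0.05, 59, was 25 with library totals alone and 114 with all miRNAs that had at least 1 count, and the count with a 2-fold change as well, 30, was 90 with all such miRNAs and 16 with the replicate block. The differences between P7 and P1 (1 call) fell to 0 with library totals alone and with the replicate block and were 5 with DESeq2. Those between P3 and P1 (0 calls) were 35 with DESeq2, 6 with all miRNAs that had at least 1 count and 5 with the replicate block. Those between the models (0 calls) were 4 with DESeq2 size factors and without miR-10a-5p and miR-10b-5p, 8 with DESeq2, 5 with all miRNAs that had at least 1 count and 2 with the replicate block. Leaving out 1 library at a time gave 0 to 8, 38 to 88 and 21 to 64 for the 3 counts at P1, 1 to 6 for P7 against P1, 0 to 26 for P3 against P1 and 0 to 8 between the models. Without WT3 the counts were 8 by adjusted p, 64 at 2-fold, 26 for P3 against P1 and 8 between the models. Without WT2 they were 47 at 2-fold and 5 between the models, without KO3 38 at an unadjusted p under 0.05, without WT1 6 for P7 against P1, without KO1 of P3 20 for P3 against P1, and without KO1 or KO2 of the Pkd2 model 3 between the models. The cause of these changes was not tested.

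Same-numbered KO and WT libraries at P1 deviated from their group means with correlations of 0.51, 0.39 and 0.01 over miRNAs, so the numbers were not taken as pairs. As a hint only, WT3 correlated best with KO2 (0.38), and the others with their own number. The replicate block gave 47 miRNAs at an unadjusted p under 0.05 over the 18 libraries, and 69 over the 6 P1 libraries alone, with 0 by adjusted p in both. With it the difference of miR-21a-5p between P7 and P1 had an adjusted p of 0.172.

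Of the 1145 refits of 72 named miRNAs by settings that gave a p, 939 kept direction and side of an unadjusted p of 0.05. Another 144 rose above that limit, 30 fell below it and 32 changed sign. With the 6 P1 libraries alone, 15 named miRNAs fell below the limit and 7 rose above it. With library totals, where the median of all 706 was 0.38, the log2 fold change turned to 0.17 for miR-30a-5p, 0.40 for miR-181a-5p, 0.17 for miR-26a-5p, 0.063 for miR-30e-5p, 0.25 for miR-182-5p, 0.091 for miR-96-5p and 0.34 for miR-21a-5p. With all miRNAs that had at least 1 count, with summed precursor rows and without miR-10a-5p and miR-10b-5p it was -0.049, -0.033 and -0.027 for miR-148a-3p, -0.045, -0.021 and -0.022 for let-7f-5p and -0.031, -0.025 and -0.020 for miR-183-5p. With 1 library left out it ran from -0.014 to 0.20 for let-7f-5p, -4.15 to 0.30 for miR-133a-3p, -0.28 to 0.069 for miR-181a-5p, -0.030 to 0.76 for miR-182-3p, -0.13 to 0.29 for miR-183-5p, -8.47 to 0.13 for miR-202-5p, -0.28 to 0.41 for miR-205-5p, -4.86 to 0.51 for miR-208b-3p, -0.47 to 0.15 for miR-26a-5p, -1.78 to 1.18 for miR-375-3p and -2.15 to 0.38 for miR-381-3p. For miR-133a-3p, miR-202-5p, miR-208b-3p and miR-381-3p the sign turned without WT1. Depth limits the rarest miRNAs, since 3 reads were worth 0.0858 to 0.272 CPM and WT2 and WT3 held the fewest reads.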
